A study of Mus musculus with 16 samples.

Results

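The genes Cdkn1c, Phlda2, Slc22a18, Kcnq1, Ascl2, Cd81, Tssc4, Nap1l4 and Igf2 lie within 898 kb of the far end of mouse chromosome 7, a region known for genomic imprinting. They were taken as a named list of 9 genes out of 35975 genes summed from the deposited transcript tables. The libraries were bulk RNA sequencing of E14 mouse embryonic stem cells (the line ES-E14TG2a), 2 biological replicates in each of 8 groups. TKO cells and wild-type (WT) cells were sampled at day 0 in a naive-state medium (LIF, vitamin C and inhibitors of MEK and Gsk3) and on days 2, 4 and 7 after a change to Fgf2, Activin A and serum replacement, a course toward epiblast-like cells that had 1 more split on day 4 in both genotypes. The labels do not expand TKO, and loss of the DNA methyltransferases Dnmt1, Dnmt3a and Dnmt3b is assumed here; neither the number of clones nor the deleted exons are given in the sources used here. Dnmt1 transcripts measured 36.2 to 55.9 CPM (counts scaled to library size, with library composition taken into account) in the 8 TKO libraries, against 310 to 545 CPM in the 8 WT libraries. Dnmt3a was lower in TKO on days 0, 2 and 7, and its day 4 difference was -1.61 (adjusted p = 0.0553). Dnmt3b transcripts did not separate the genotypes at day 0, with 29.1 ± 0.260 CPM in TKO and 28.3 ± 1.41 CPM in WT (log2 fold change 0.04, adjusted p = 0.941), and reached 959 ± 50.9 CPM in TKO and 1800 ± 143 CPM in WT at day 2.

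Imprinted genes are read mainly from the chromosome inherited from one parent, and the choice is kept by DNA methylation at control regions that escape the erasure of methylation after fertilization. In the mouse, Cdkn1c, Phlda2, Slc22a18 and Kcnq1 are read from the maternal chromosome under one control region, Ascl2, Cd81 and Tssc4 are imprinted mainly in the placenta, and Igf2 is read from the paternal chromosome under another control region. Several of these genes set the growth of the embryo and the placenta. The counts do not tell the parental chromosomes apart, and in bulk RNA fewer cells that express a gene and less RNA per cell cannot be told apart. Long noncoding RNAs of the region were not analysed here.

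Each TKO library had a lower total than each WT library of the same day on days 0, 4 and 7, and the totals overlapped on day 2. Summed estimated counts lay between 33168178 and 47064338 in TKO libraries and between 39799498 and 58197630 in WT libraries. The median absolute log2 difference between replicates over genes was 0.0727 in TKO day 0, the closest pair, 0.179 in TKO day 4 and 0.271 in WT day 0, the pair farthest apart. Within TKO day 4 the replicates also differed in Dnmt3a, at 187 and 33.9 CPM, against 297 and 380 CPM in WT day 4. Naive markers summed to 3140 and 3150 CPM in TKO and 2630 and 2950 CPM in WT at day 0, and to 31.0 and 35.1 CPM in TKO and 17.0 and 19.6 CPM in WT at day 7. The formative epiblast list summed to between 1650 and 1740 CPM in TKO and between 2570 and 2770 CPM in WT at day 2; without Dnmt3b, which is among its genes, the sums were 729 and 748 CPM in TKO and 870 and 875 CPM in WT. These sums follow the labelled course in both genotypes.

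In TPM, a scale per transcript length that allows genes of different length to be set side by side, Cd81 had a median level of 173 over the 16 libraries, Nap1l4 130 and Tssc4 32.8. Cdkn1c followed with 5.90 TPM, Phlda2 with 4.16 TPM and Igf2 with 1.47 TPM. Ascl2 had a median of 0.560 TPM, Slc22a18 of 0.176 TPM and Kcnq1 of 0.0525 TPM. The cluster therefore held 3 genes with high levels and 6 that were low or were on for part of the course. Kcnq1 did not pass the filter on low counts, with 0 to 7 counts per library and 42 counts in all, so 8 of the 9 genes were tested.

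**Figure D1:**
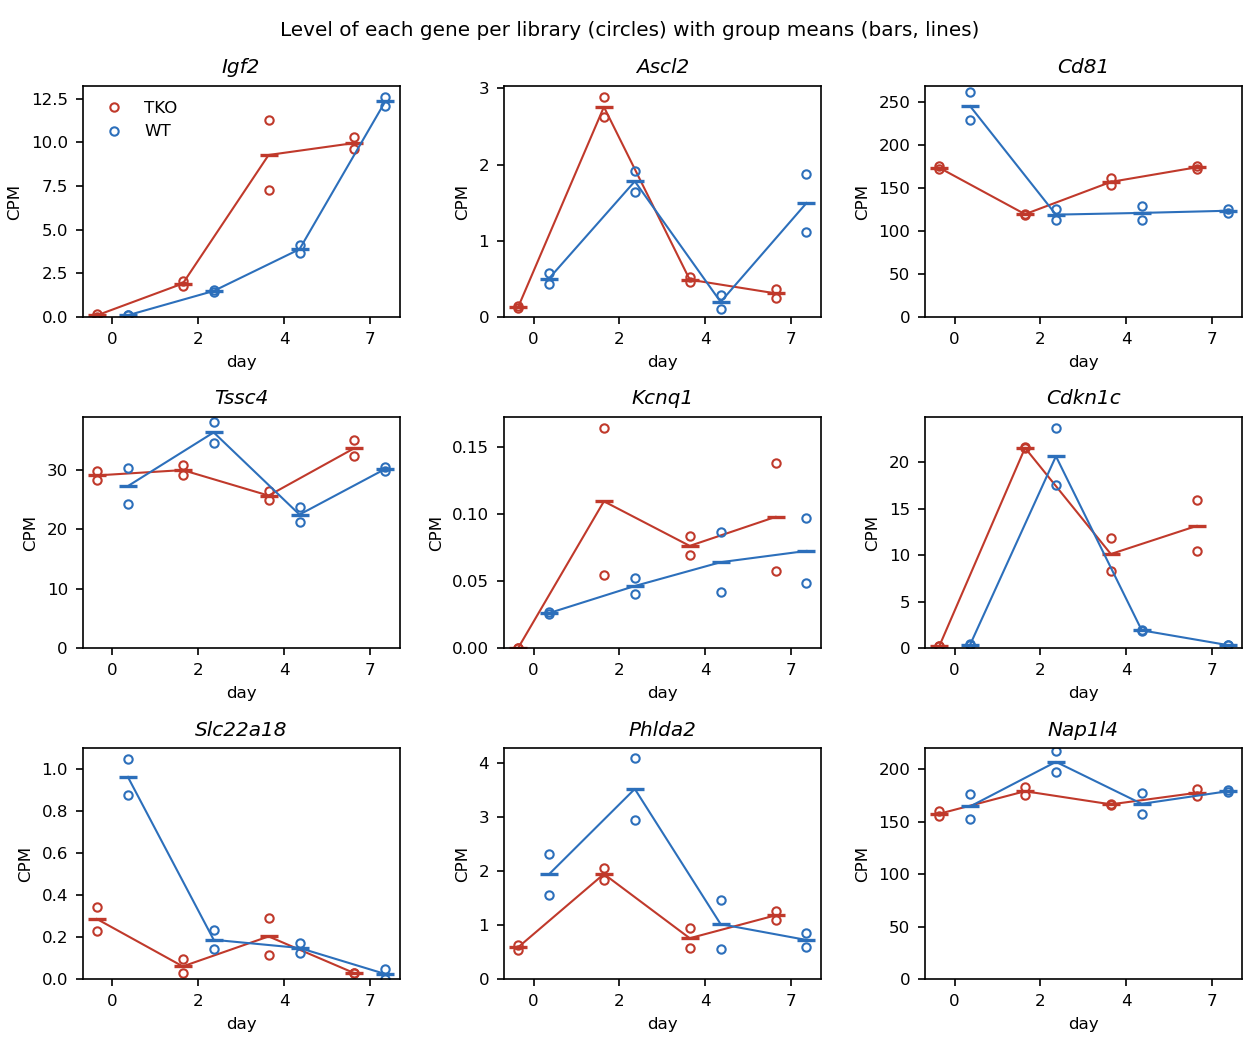
Level in CPM (linear axes starting at 0) of the 9 genes by day, in their order along the chromosome; each circle is 1 library, bars and lines are means of 2 libraries, TKO in red and WT in blue. Cdkn1c reached its peak at day 2 in both genotypes and stood at 10.4 and 15.9 CPM in TKO at day 7, against 0.362 and 0.289 CPM in WT.

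Between the genotypes, some of the 8 tested cluster genes differed on days 0, 4 and 7 in the fit of all libraries. At day 7 their share was below that of all genes tested. At day 0 Cd81, Phlda2, Slc22a18 and Ascl2 were lower in TKO (4 of 8, none higher; 12.7% of all genes tested were called, 4.52% higher and 8.16% lower), with called meaning a Benjamini-Hochberg adjusted p under 0.05 in edgeR's quasi-likelihood test over all 18489 genes. That count was 2 without either WT day 0 library, 1 (Cd81) without either TKO day 0 library and 0 when only the day 0 libraries were fitted. At day 2 none of the 8 was called by edgeR (13.4% of all genes, 7.91% higher and 5.52% lower), and DESeq2 called 0 of them too, while a fit of the day 2 libraries alone called Phlda2 lower and Ascl2 higher; 2482 genes were called by edgeR and 3140 by DESeq2 that day, and 5427 had an unadjusted p under 0.05. At day 4 Cdkn1c, Igf2, Cd81 and Ascl2 were higher in TKO (4 of 8, none lower). Of all genes 28.9% were called that day, 17.8% higher and 11.1% lower. The day 4 call was lost in 8 of 11 alternative fits for Ascl2 and in 1 for Cd81. At day 7 Cdkn1c and Cd81 were higher and Ascl2 was lower (3 of 8; 44.5% of all genes, 23.4% higher and 21.1% lower), and the day 7 libraries alone added Tssc4 (higher) and Igf2 (lower). The median log2 fold change of the 8 genes was -0.73 at day 0, -0.10 at day 2, 0.41 at day 4 and 0.18 at day 7 (0.16 without Slc22a18, which had no fold that day), beside -0.03, -0.01, 0.01 and 0.00 over all genes tested.

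**Figure D2:**
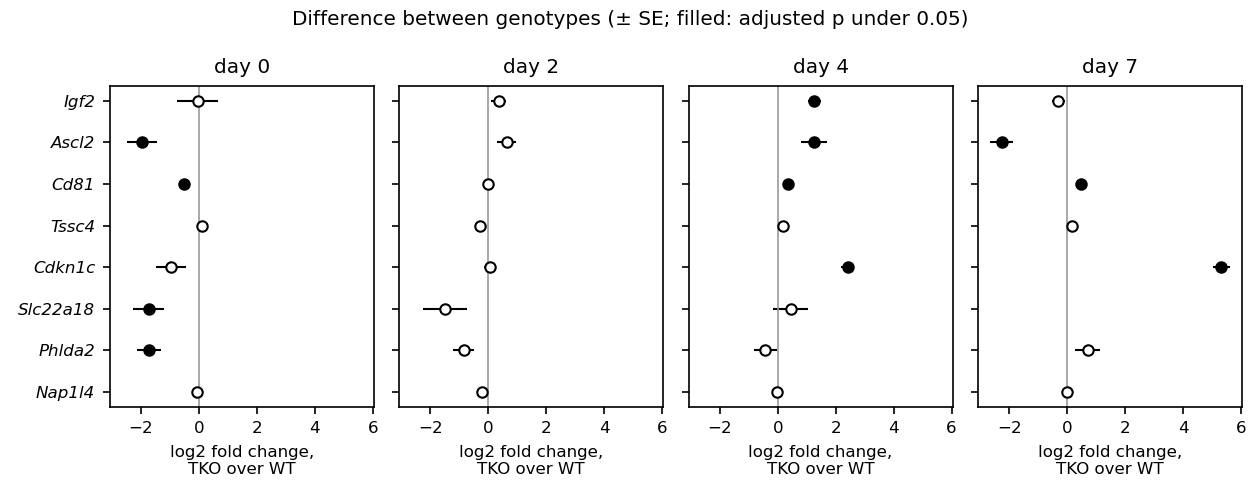
Log2 fold change of TKO over WT on each day for the 8 tested genes; points are edgeR estimates, bars are 1 SE, filled points have an adjusted p under 0.05, and no point is drawn for Slc22a18 at day 7, where both groups were at or under 3 counts. The 4 filled points of day 0 lie left of zero (1 or 2 of them keep their call without 1 day 0 library) and the 4 of day 4 lie right of it, while at day 7 Cdkn1c lies at 5.32 and Ascl2 at -2.26.

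Cdkn1c (ENSMUSG00000037664.13, chromosome 7, 143458339 to 143461050, minus strand, GRCm38) encodes p57, an inhibitor of cyclin-dependent kinases that restrains growth of the embryo. It was nearly silent in naive cells, rose in both genotypes at day 2, and then remained high in TKO while it returned to its day 0 level in WT. Its level at day 0 was 0.171 and 0.202 CPM in TKO (6 and 7 counts) and 0.324 and 0.402 CPM in WT. At day 2 it was 21.5 and 21.6 CPM in TKO and 17.6 and 23.7 CPM in WT. The day 2 values of the genotypes overlap. At day 4 Cdkn1c stood at 11.9 and 8.35 CPM in TKO and 1.83 and 1.99 CPM in WT. At day 7 it stood at 10.4 and 15.9 CPM in TKO and 0.362 and 0.289 CPM in WT. On both of these days each TKO library lay above each WT library, and at day 7 the WT values overlapped those of WT day 0.

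The log2 fold change of Cdkn1c, TKO over WT, was -0.96 ± 0.51 at day 0 (adjusted p = 0.251) and 0.06 ± 0.20 at day 2 (adjusted p = 0.876). It was 2.41 ± 0.23 at day 4 (adjusted p = 7.04e-06) and 5.32 ± 0.30 at day 7 (adjusted p = 1.75e-08; edgeR, ± SE). Against day 0, Cdkn1c rose in TKO by 6.83 ± 0.33, 5.74 ± 0.34 and 6.12 ± 0.34 on days 2, 4 and 7. In WT the rise against day 0 was 5.81 ± 0.30 on day 2 and 2.38 ± 0.33 on day 4 (adjusted p = 2.23e-05), and at day 7 the value was -0.16 ± 0.44 (adjusted p = 0.770). The change of the genotype difference from day 0, the interaction of genotype and day, was 1.02 ± 0.55 at day 2 (adjusted p = 0.313), 3.37 ± 0.56 at day 4 (adjusted p = 0.00102) and 6.28 ± 0.61 at day 7 (adjusted p = 6.30e-06). Without TKO day 4 replicate 1, the library that stood apart in Dnmt3a, the day 4 difference was 2.12 (adjusted p = 3.89e-05). In the order of group means, TKO day 2 and WT day 2 were not separated, nor were TKO day 7 and TKO day 4, nor WT day 0 and WT day 7.

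Cdkn1c had 5 annotated transcripts, and Cdkn1c-201 and Cdkn1c-202 took most of its estimated counts in both genotypes at day 2. At day 7 Cdkn1c-201 had 220 and 394 counts in TKO, against 8.65 and 10.9 counts in WT. Cdkn1c-202 had 105 and 130 counts in TKO at day 7 and 0 counts in both WT libraries. At day 2 Cdkn1c-201 had 457 and 590 counts in TKO and 467 and 485 counts in WT. Both transcripts thus moved with the gene total. An annotated gene on the opposite strand overlaps Cdkn1c, and the use of strand in the counting is not given in the sources used here.

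Igf2 (ENSMUSG00000048583.16, 142650766 to 142666816, minus strand) encodes insulin-like growth factor 2, the growth-promoting ligand of the cluster. It climbed over the course in both genotypes and reached its high level sooner in TKO. At day 0 it was at the edge of detection, with 0.171 and 0.0289 CPM in TKO (6 and 1 counts) and 0.108 and 0.100 CPM in WT (4 counts each). At day 2 it had 1.78 and 2.06 CPM in TKO and 1.54 and 1.45 CPM in WT. Day 4 gave 11.3 and 7.26 CPM in TKO and 3.67 and 4.10 CPM in WT, with no overlap. Day 7 gave 9.63 and 10.3 CPM in TKO and 12.6 and 12.1 CPM in WT, and here the WT libraries were the higher ones. The fold change was 1.26 ± 0.22 at day 4 (adjusted p = 0.000986), and 0.90 without TKO day 4 replicate 1 (adjusted p = 0.00947). It was -0.05 ± 0.70, 0.36 ± 0.26 and -0.30 ± 0.22 on days 0, 2 and 7 (adjusted p = 0.992, 0.386 and 0.281), and the day 7 difference was called when only the day 7 libraries were fitted (adjusted p = 0.0254).

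Against day 0, Igf2 rose by 4.22 ± 0.42, 6.49 ± 0.37 and 6.59 ± 0.37 on days 2, 4 and 7 in TKO, and by 3.81 ± 0.41, 5.18 ± 0.38 and 6.84 ± 0.36 in WT. All 6 rises were called (highest adjusted p = 2.45e-06). The interaction of genotype and day was 0.41 ± 0.76, 1.31 ± 0.75 and -0.25 ± 0.75 on days 2, 4 and 7, with a lowest adjusted p of 0.274, and both day 0 groups behind it held 7 and 8 counts. Leaving out TKO day 0 replicate 1 or 2 gave TKO rises of 5.89 or 3.45 on day 2, 8.18 or 5.73 on day 4 and 8.27 or 5.82 on day 7, all still called. TKO day 7 and TKO day 4 overlapped in level, as did both day 0 groups, and the other neighbours in the order of means did not. The gene Gm49394, annotated over Igf2 on the same strand, had 0 to 1.81 CPM, and adding its counts to Igf2 changed no call.

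Igf2 is known for several promoters, and its transcripts start at different exons. The promoters of the 2 transcripts that took most of the estimated counts are shown because the share of each moved between days and genotypes. They are RefSeq promoter windows on GRCm38.p6, minus strand, 250 bases before to 50 after the start, in lower case with each CpG in capitals. The first, chr7:142661222-142661521, holds 14 CpG and has its start 34 bases from that of Igf2-204. The second, chr7:142657447-142657746, holds 7 CpG and starts at the same base as Igf2-201. Over 32851 promoters of this length the median was 7 CpG, and 63.7% held fewer than the first and 47.9% fewer than the second.
Igf2-204 start: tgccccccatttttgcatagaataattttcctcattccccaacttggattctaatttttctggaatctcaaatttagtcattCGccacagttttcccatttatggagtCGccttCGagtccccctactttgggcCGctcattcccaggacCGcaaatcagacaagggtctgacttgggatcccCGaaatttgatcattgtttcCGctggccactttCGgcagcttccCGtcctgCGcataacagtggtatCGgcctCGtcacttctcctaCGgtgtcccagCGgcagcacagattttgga
Igf2-201 start: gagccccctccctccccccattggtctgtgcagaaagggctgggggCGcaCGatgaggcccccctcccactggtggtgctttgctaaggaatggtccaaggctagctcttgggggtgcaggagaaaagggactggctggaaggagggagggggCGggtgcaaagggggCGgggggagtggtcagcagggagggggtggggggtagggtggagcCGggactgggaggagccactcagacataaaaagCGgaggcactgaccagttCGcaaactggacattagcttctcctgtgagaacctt
The 6 bases TGCCGC, the motif of the imprint-binding factor Zfp57, were searched on both strands in the 9 promoters of the 6 cluster genes that the RefSeq table holds. They were found 1 time, in the first window above, and in 11.6% of all promoters.

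At day 2 Igf2-204 took 85.1% and 70.2% of the Igf2 counts in TKO and 60.5% and 25.9% in WT. At day 4 it had 401 and 194 estimated counts in TKO (74.1% and 61.6% of the gene), against 33.2 and 0.21 counts in WT (15.6% and 0.1%). Igf2-201 had 85.8 and 95.1 counts in TKO at day 4 (15.9% and 30.1%), against 164 and 177 counts in WT (77.1% and 90.7%). The excess of Igf2 in TKO at day 4 therefore lay in the counts given to Igf2-204, while those given to Igf2-201 were lower in TKO than in WT. At day 7 the order of Igf2-204 was the other way, with 3.6% and 0.0% in TKO and 34.8% and 20.5% in WT. Igf2-201 took 80.7% and 80.4% of the gene in TKO at day 7, against 49.7% and 59.1% in WT. These shares are a description with no test: the transcripts share most of their sequence, and the error of the split between them was not used here.

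**Figure D3:**
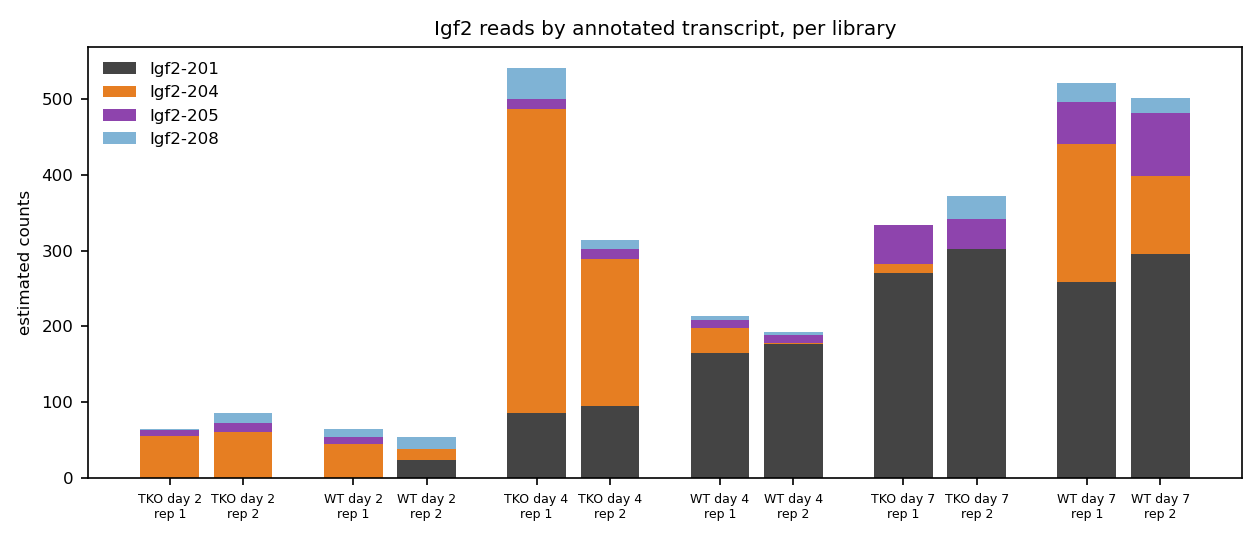
Estimated counts (linear axis from 0) assigned to 4 Igf2 transcripts in each library of days 2, 4 and 7; each bar is 1 library and colours are transcripts. Igf2-204 makes up most of both TKO day 4 bars, while Igf2-201 makes up most of the WT day 4 and TKO day 7 bars.

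Ascl2 (ENSMUSG00000009248.6, 142966829 to 142969264, minus strand) encodes a basic helix-loop-helix factor that trophoblast progenitors of the placenta need. It was low throughout. In TKO it peaked at day 2, in WT its levels on days 2 and 7 overlapped, and at day 7 it was lower in TKO. Its CpG-rich promoter, chr7:142969215-142969514 on the minus strand, is shown with each CpG in capitals because Ascl2 was called on 3 of the 4 days; it holds 23 CpG, and 78.5% of promoters held fewer.
Ascl2 start: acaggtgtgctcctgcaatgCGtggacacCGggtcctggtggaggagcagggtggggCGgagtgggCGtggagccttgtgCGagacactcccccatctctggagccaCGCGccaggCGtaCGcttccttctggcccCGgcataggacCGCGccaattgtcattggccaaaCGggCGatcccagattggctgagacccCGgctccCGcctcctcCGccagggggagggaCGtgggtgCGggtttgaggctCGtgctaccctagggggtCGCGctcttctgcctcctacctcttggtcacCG
Ascl2 had 0.114 and 0.144 CPM in TKO at day 0 (4 and 5 counts), against 0.433 and 0.578 CPM in WT. At day 2 it had 2.62 and 2.89 CPM in TKO and 1.64 and 1.92 CPM in WT. On neither day did the libraries of the genotypes overlap, with TKO below WT at day 0 and above it at day 2. The day 2 difference was not called in the fit of all libraries. At day 4 the levels were 0.521 and 0.460 CPM in TKO and 0.293 and 0.105 CPM in WT. At day 7 they were 0.374 and 0.248 CPM in TKO and 1.88 and 1.11 CPM in WT, with each TKO library below each WT library.

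The Ascl2 difference was -2.26 ± 0.40 at day 7 (adjusted p = 0.000495, and 0.0099 at most when a library was left out). Earlier in the course it measured -1.95 ± 0.52 (day 0, adjusted p = 0.0261), 0.63 ± 0.32 (day 2, adjusted p = 0.210) and 1.25 ± 0.44 (day 4, adjusted p = 0.0457). For day 0 the call did not survive leaving out WT day 0 replicate 2 (0.0723) or TKO day 0 replicate 1 (0.181) or 2 (0.130), and the day 4 call was lost in 8 of 11 alternatives, among them DESeq2 (0.0619) and the fits without WT day 4 replicate 2 (0.264) and without TKO day 4 replicate 1 (0.159) or 2 (0.0881). Against day 0, Ascl2 rose by 4.39 ± 0.45 on day 2 and 1.90 ± 0.51 on day 4 in TKO, and the day 7 value was 1.25 ± 0.56 (adjusted p = 0.0650). In WT it rose by 1.81 ± 0.37 on day 2, fell by 1.29 on day 4 (SE 0.44, adjusted p = 0.0204) and rose by 1.56 ± 0.37 on day 7. The interaction was called at day 2 (2.58 ± 0.61, adjusted p = 0.0212) and day 4 (3.20 ± 0.68, adjusted p = 0.00565), not at day 7 (-0.31 ± 0.73, adjusted p = 0.812). The WT fall on day 4 lost its call without WT day 0 replicate 2 (0.121) or WT day 4 replicate 2 (0.153). The day 2 interaction lost its call in 6 fits that left out 1 library, with adjusted p between 0.0509 and 0.110, namely without WT day 0 replicate 2, WT day 2 replicate 1, or any of the TKO day 0 and TKO day 2 libraries.

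Phlda2 (ENSMUSG00000010760.5, 143501545 to 143503150, minus strand) encodes a pleckstrin-homology protein that limits growth of the placenta. It was lower in TKO at day 0, and its genotype difference moved upward from day 0 to day 7. The day 0 levels were 0.541 and 0.635 CPM in TKO and 2.32 and 1.56 CPM in WT. Day 2 gave 1.83 and 2.06 CPM in TKO and 2.94 and 4.10 CPM in WT. Both days kept the TKO libraries below the WT libraries. The day 4 levels, 0.938 and 0.575 CPM in TKO and 1.47 and 0.564 CPM in WT, overlapped. By day 7 the TKO libraries, at 1.26 and 1.10 CPM, lay above the WT libraries, at 0.845 and 0.603 CPM. Phlda2 differed by -1.72 ± 0.42 on day 0 (adjusted p = 0.0182), -0.85 ± 0.36 on day 2 (0.138), -0.43 ± 0.40 on day 4 (0.458) and 0.71 ± 0.42 on day 7 (0.194). The day 2 difference was called when only the day 2 libraries were fitted (-0.82, adjusted p = 0.0230). The day 0 call did not survive leaving out WT day 0 replicate 1 (0.0986) or TKO day 0 replicate 1 (0.146) or 2 (0.107).

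Against day 0, Phlda2 rose on day 2 in TKO by 1.72 ± 0.42 (adjusted p = 0.00316), and the values on days 4 and 7 were 0.37 ± 0.45 (0.495) and 1.01 ± 0.44 (0.0572). In WT the values were 0.86 ± 0.36 on day 2 (0.0556) and -0.91 ± 0.38 on day 4 (0.0513), and Phlda2 fell by 1.42 on day 7 (SE 0.40, adjusted p = 0.00702). That fall lost its call without WT day 0 replicate 1 (0.0570) or WT day 7 replicate 2 (0.0694). The interaction was 2.42 ± 0.60 at day 7 (adjusted p = 0.00837), the only one of its 3 to be called.

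Cd81 (ENSMUSG00000037706.17, 143052739 to 143067934, plus strand) encodes a tetraspanin, a membrane protein that organizes receptors at the cell surface. It was abundant in all libraries, fell by about 1 log2 unit in WT when the cells left the naive state and stayed there, and in TKO returned to its day 0 level by day 7. Its promoter, chr7:143052500-143052799 on the plus strand, is shown with each CpG in capitals because Cd81 was called on 3 of the 4 days; it also holds 23 CpG.
Cd81 start: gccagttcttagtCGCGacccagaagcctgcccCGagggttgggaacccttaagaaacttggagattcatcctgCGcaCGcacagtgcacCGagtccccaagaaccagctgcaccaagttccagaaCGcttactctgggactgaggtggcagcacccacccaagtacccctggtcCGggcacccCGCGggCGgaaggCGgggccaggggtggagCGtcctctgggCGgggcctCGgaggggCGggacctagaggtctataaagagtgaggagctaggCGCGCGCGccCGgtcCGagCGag
Cd81 had 172 and 175 CPM in TKO at day 0 and 261 and 229 CPM in WT. At day 2 it had 120 and 119 CPM in TKO and 113 and 125 CPM in WT, and the genotypes overlapped. At day 4 the levels were 153 and 161 CPM in TKO and 113 and 129 CPM in WT. At day 7 they were 176 and 172 CPM in TKO and 126 and 121 CPM in WT, again with no overlap. The difference was thus negative at day 0 and positive at days 4 and 7.

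The fold change of Cd81 was -0.50 ± 0.08 at day 0 (adjusted p = 0.00200), 0.00 ± 0.08 at day 2 (1.00), 0.37 ± 0.08 at day 4 (0.00464) and 0.49 ± 0.08 at day 7 (0.000356). Against day 0 it fell in TKO by 0.54 on day 2 (SE 0.08), and its values on days 4 and 7 were -0.14 ± 0.08 (0.157) and 0.01 ± 0.08 (0.953). In WT it fell by 1.04, 1.02 and 0.98 on days 2, 4 and 7 (SE 0.08 each). The interaction was called on each day, at 0.50 ± 0.12 on day 2 (adjusted p = 0.0210), 0.87 ± 0.12 on day 4 (0.000221) and 0.99 ± 0.12 on day 7 (3.71e-05). In TPM the day 0 levels were 201 and 203 in TKO and 234 and 252 in WT, a log2 ratio of -0.27 in place of -0.50; the day 0 call was lost when only the day 0 libraries were fitted (0.0841), and the day 4 call without WT day 4 replicate 1 (0.0514). The day 2 interaction was lost in 5 fits that left out 1 library (0.0649 to 0.0837), namely WT day 2 replicate 1 or any of the TKO day 0 and TKO day 2 libraries.

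Slc22a18 (ENSMUSG00000000154.16, 143473736 to 143499334, plus strand) encodes a membrane protein of an organic cation transporter family. It was a low gene of naive cells. At day 0 it had 0.342 and 0.231 CPM in TKO (12 and 8 counts) and 1.05 and 0.879 CPM in WT (39 and 35 counts), a difference of -1.74 ± 0.52 (adjusted p = 0.0433). That call was lost in 8 of 9 alternatives, with adjusted p between 0.0505 and 0.281 in those 8, among them each fit that left out 1 of the 4 day 0 libraries (WT replicate 1 0.155 and 2 0.0528, TKO replicate 1 0.158 and 2 0.281). Day 2 gave 0.0273 and 0.0938 CPM in TKO and 0.142 and 0.233 CPM in WT, and day 4 gave 0.292 and 0.115 CPM in TKO and 0.172 and 0.125 CPM in WT. These differences were -1.51 ± 0.76 (0.206) and 0.45 ± 0.61 (0.628). At day 7 both groups held 2 counts, which is under 3 counts, and no fold is given. Over both libraries TKO had 2 counts at day 7 and 20 at day 0, a ratio of 0.0982 (95% exact interval 0.0111 to 0.404, counting error only), and WT had 2 and 74, a ratio of 0.0250 (0.00298 to 0.0937). Slc22a18 also fell against day 0 on day 2 in TKO (-2.14 ± 0.73, adjusted p = 0.0230) and on days 2 and 4 in WT (-2.37 ± 0.54 and -2.66 ± 0.53); the TKO call was lost without TKO day 0 replicate 1 (0.120) or TKO day 2 replicate 1 (0.150).

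Kcnq1 (ENSMUSG00000009545.14, 143106362 to 143427042, plus strand) encodes a voltage-gated potassium channel subunit and spans the interval between Tssc4 and Cdkn1c. It had 0 counts in both TKO libraries at day 0 and 1 count in each WT library, so neither group rose above 3 counts and no fold is given. On days 2, 4 and 7 the TKO libraries summed to 9, 7 and 7 counts and the WT libraries to 4, 7 and 6 counts. Set against a floor of 3 counts over the day 0 group, the TKO levels of days 2, 4 and 7 gave ratios of 2.64, 1.78 and 2.29. These ratios leave out the counting error of the later days. The exact counting intervals of TKO began at 0.052, 0.0308 and 0.0396 CPM on days 2, 4 and 7. That of TKO day 0 ended at 0.0529 CPM, so a rise was not shown. A difference between the genotypes was not detectable at this depth.

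Tssc4 (ENSMUSG00000045752.13, 143069249 to 143071093, plus strand), which encodes a factor of spliceosome assembly, and Nap1l4 (ENSMUSG00000059119.9, 143513579 to 143549106, minus strand), which encodes a histone chaperone, were expressed evenly. Tssc4 ran from 24.9 to 35.0 CPM in the TKO libraries and from 21.2 to 38.1 CPM in the WT libraries. Nap1l4 ran from 155 to 183 CPM in TKO and from 153 to 217 CPM in WT. In the fit of all libraries neither was called between the genotypes on any day, and a fit of the day 7 libraries alone called Tssc4 higher in TKO (0.19, adjusted p = 0.0218). Tssc4 differed by 0.09 ± 0.11, -0.28 ± 0.11, 0.19 ± 0.11 and 0.16 ± 0.11 on days 0, 2, 4 and 7 (lowest adjusted p = 0.102), and Nap1l4 by -0.06, -0.21, -0.01 and -0.01 (SE 0.08 each, lowest adjusted p = 0.113). Both rose slightly in WT on day 2 against day 0, Tssc4 by 0.41 ± 0.11 (0.00428) and Nap1l4 by 0.33 ± 0.08 (0.00326), and Tssc4 fell by 0.28 in WT on day 4 (SE 0.11, adjusted p = 0.0351). Both rises lost their call when only the compared libraries were fitted (Tssc4 0.0909, Nap1l4 0.114), and that of Tssc4 also without WT day 0 replicate 2 (0.0644). The Tssc4 fall was lost in 5 of 10 alternatives, among them the fits without WT day 0 replicate 1 (0.405) or WT day 4 replicate 1 (0.216). Tssc4 overlaps Trpm5 on the opposite strand.

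Counted over the course, 6 of the 8 genes changed in TKO on day 2 against day 0 (4 higher, 2 lower; 57.0% of all genes tested, 31.5% higher and 25.5% lower). On day 4 it was 3 genes, all higher (63.0% of all genes, 34.4% higher and 28.6% lower), and on day 7 it was 2 higher and 1 lower (67.8%, 36.1% higher and 31.7% lower). In WT 7 changed on day 2 (5 higher, 2 lower; 61.5% of all genes, 32.9% higher and 28.6% lower). On day 4 it was 2 higher and 4 lower (63.2%, 31.9% higher and 31.2% lower), and on day 7 it was 2 higher and 3 lower (66.2%, 32.9% higher and 33.2% lower). The comparisons within a genotype share their day 0 libraries. Genotype and day interacted for 2 genes on day 2 (7.56% of all genes, 5.76% higher and 1.8% lower), 3 on day 4 (16.3%, 11.6% higher and 4.67% lower) and 3 on day 7 (27.1%, 15.8% higher and 11.3% lower), and all of the cluster estimates called were positive. Cd81 was among them on each day.

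The genes of the cluster were not all called on the same days or in the same direction. Cdkn1c lies beside Slc22a18 and Phlda2, with gaps of 12.7 kb between Cdkn1c and Slc22a18 and 2.2 kb between Slc22a18 and Phlda2. At day 0 the differences of Cdkn1c, Slc22a18 and Phlda2 were all negative (-0.96, -1.74 and -1.72), and that of Cdkn1c was not called. At day 7 those of Cdkn1c (5.32) and Phlda2 (0.71) were both positive, and only that of Cdkn1c was called. No test compared 1 gene with another. Cd81 and Tssc4 lie 1.3 kb apart, and Cd81 was called on 3 days while Tssc4 was called on none in the fit of all libraries. Of the 16 protein-coding neighbours listed beside the cluster, 13 were tested, and 0 were called higher and 1 lower at day 0, none at day 2 (by edgeR), 2 higher and 1 lower at day 4, and 4 higher and 4 lower at day 7. Over all genes tested, 12.7%, 13.4%, 28.9% and 44.5% were called on days 0, 2, 4 and 7. Among the neighbours, the day 7 rises with the lowest adjusted p were Tnfrsf22, Tnfrsf23 and Trpm5. Tnfrsf22 averaged 33.0 ± 3.82 CPM in TKO and 16.3 ± 0.984 CPM in WT (log2 fold change 1.02, adjusted p = 1.36e-05). Tnfrsf23 averaged 2.82 ± 0.492 CPM in TKO and 0.350 ± 0.0509 CPM in WT (3.00, 2.76e-05), and Trpm5, an ion channel gene, 1.75 ± 0.132 CPM in TKO and 0.446 ± 0.0174 CPM in WT (1.96, 0.000584). Tnfrsf22 and Tnfrsf23 are tandem genes for decoy receptors of the ligand TRAIL, and reads shared between related copies could be split between them. The falls were led by Nadsyn1, Cars and Mrpl23, at -0.86, -0.49 and -0.76 (0.000106, 0.00218 and 0.00327).

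**Figure D4:**
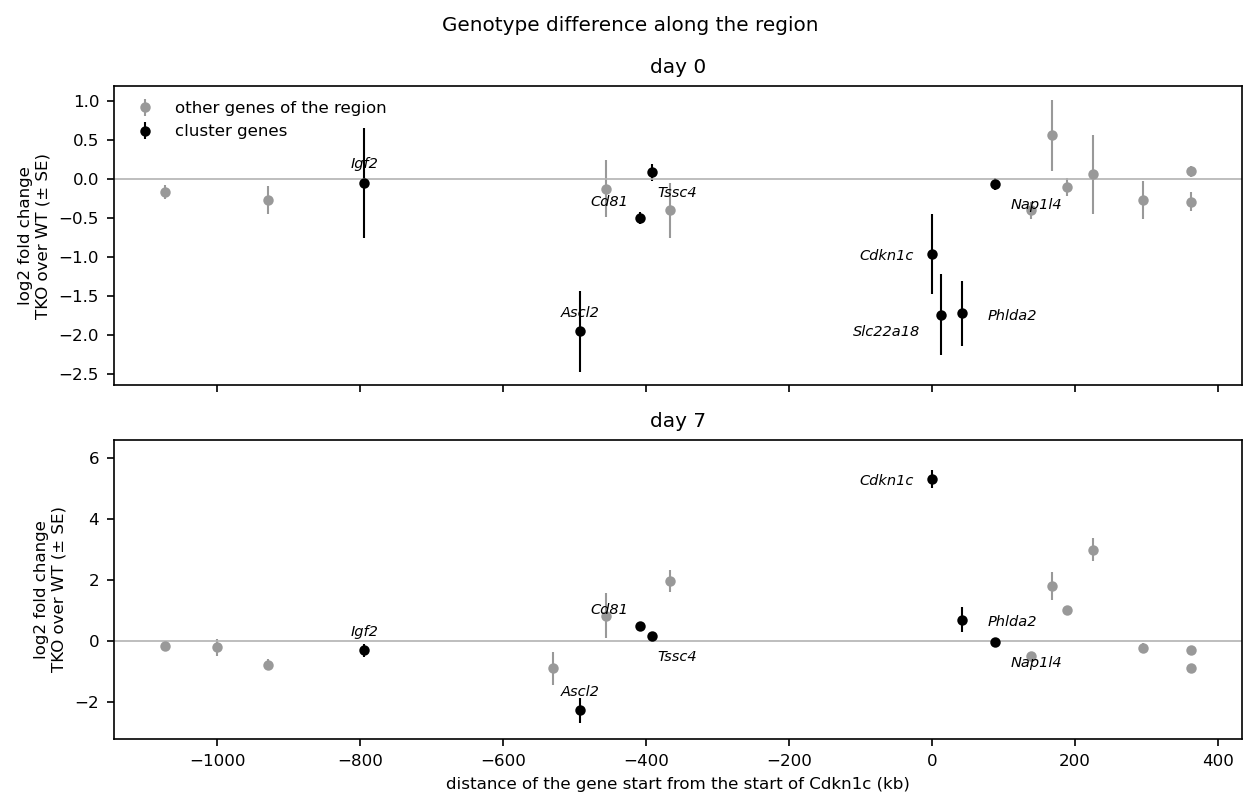
Log2 fold change of TKO over WT at day 0 (top) and day 7 (bottom) against the distance of each gene's start from the start of Cdkn1c in kb; black points are cluster genes, grey points the tested neighbours, bars 1 SE, and genes at 3 counts or fewer in both groups are not drawn. Cdkn1c stands at 5.32 at day 7, against 0.71 for Phlda2, and Cd81, Ascl2, Slc22a18 and Phlda2 lie under zero at day 0.

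Of the 13 genes of the IGF axis, through which Igf2 signals, 6 were higher and 2 lower in TKO at day 4, beside 17.8% higher and 11.1% lower over all genes tested. The rises with the lowest adjusted p were Igfbp4, Igf1 and Igfbp2. Igf1, the related ligand, averaged 1.97 ± 0.0751 CPM in TKO and 0.220 ± 0.0433 CPM in WT (log2 fold change 3.15, adjusted p = 0.000287). The binding proteins Igfbp4 and Igfbp2, which hold the ligands in the medium, were higher by 1.88 (0.000157) and 0.72 (0.00193). The falls were Igf2bp2, an RNA-binding protein of Igf2 transcripts, at -0.42 (0.00720), and the receptor substrate Irs2 at -0.37 (0.0405). At day 7, 3 were higher and 1 lower, beside 23.4% higher and 21.1% lower over all genes tested. The rises were Igfbp4 (1.82, 9.62e-05), Irs1 (1.26, 0.000646) and Igf2r, the receptor that clears Igf2 (0.79, 0.000899), with Igf2bp2 lower (-1.35, 3.30e-07). The list's median log2 fold change was 0.13 at day 4 and 0.07 at day 7.

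Of the 14 tested relatives and partners of the cluster genes, 7 were higher and 5 lower in TKO at day 4, and 5 higher and 7 lower at day 7. The shares over all genes tested were 17.8% higher and 11.1% lower at day 4, and 23.4% higher and 21.1% lower at day 7. The other inhibitors of the Cdkn1c family moved apart on days 4 and 7. Cdkn1a was lower in TKO at day 0 (-0.56, adjusted p = 0.00134) and higher at day 2 (0.58, 0.00138). Cdkn1b was not called on these 2 days (-0.16, 0.189 and -0.04, 0.801). At day 4 Cdkn1a differed by 1.35 (4.15e-07) and Cdkn1b by -0.81 (5.69e-06). Cdkn1a averaged 263 ± 3.95 CPM in TKO and 134 ± 9.91 CPM in WT at day 7 (0.97, adjusted p = 1.76e-06), and Cdkn1b 60.8 ± 0.319 CPM in TKO and 117 ± 0.582 CPM in WT (-0.94, 5.17e-07). Nap1l5, an imprinted relative of Nap1l4 on chromosome 6, was higher in TKO on all 4 days, by 1.15 (0.00218), 1.43 (0.000110), 2.09 (1.04e-06) and 1.34 (4.64e-05). Cd9, another tetraspanin, moved like Cd81 at day 0 (-0.39, 0.0286) and day 4 (0.43, 0.00905) and opposite to it at day 7, with 27.5 ± 2.06 CPM in TKO and 67.7 ± 0.634 CPM in WT (-1.30, 9.15e-07). Of 8 regulators of imprinted domains, Ctcfl was higher at day 7, the one call of that list, with 1.91 ± 0.380 CPM in TKO and 0.157 ± 0.0513 CPM in WT (3.58, 0.000102). At day 4 Ctcfl (2.25, 0.00102), the imprint-binding factor Zfp57 (0.71, 0.00327) and Dppa3 (2.45, 0.0118) were higher and Zfp445, another imprint-binding factor, was lower (-0.41, 0.0253).

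Markers of other cell types and states moved with the genotype on days 0, 4 and 7. At day 0, when 4 cluster genes were lower, the neural list summed to 110 and 113 CPM in TKO and 57.0 and 61.1 CPM in WT, most of it from Tubb3 (78.9 ± 0.882 CPM in TKO, 25.5 ± 2.94 CPM in WT, adjusted p = 0.00741). Kdr (1.51, 0.00477) and Cdx2 (1.19, 0.0431) were also higher that day and Krt7 was lower (-0.91, 0.0111). At day 4 the naive list summed to 59.9 and 92.1 CPM in TKO and 31.6 and 37.0 CPM in WT, and 6 of its 8 genes were called higher. The mesoderm list (T, Mixl1, Mesp1, Tbx6, Kdr and Hand2) summed to 604 and 626 CPM in TKO and 50.7 and 60.7 CPM in WT at day 7, and all 5 of its tested genes were called higher, with Hand2 at 0 counts in both WT libraries. T, the primitive streak factor Brachyury, averaged 521 ± 7.66 CPM in TKO and 47.3 ± 6.09 CPM in WT. At day 4, when Cdkn1c and Igf2 already differed, that list summed to between 14 and 18.9 CPM in TKO and between 6.45 and 17.6 CPM in WT, with Mesp1 at 0 counts in both TKO libraries. Within it Kdr averaged 11.3 ± 0.0257 CPM in TKO and 0.398 ± 0.267 CPM in WT (4.78, adjusted p = 3.72e-07), Hand2 was also called higher (3.53, 0.0176) and T was not called (-1.44, 0.144). Of the endoderm list 4 of 7 genes were higher at day 4 (Gata6, Sox17, Sox7 and Afp) and Foxa2 was lower, with Gata6 at 2.41 ± 1.87 CPM in TKO and 0.0831 ± 0.0288 CPM in WT (4.79, 8.61e-05); the list summed to 14.2 and 39.9 CPM in TKO and 14.8 and 22.4 CPM in WT. The trophoblast list, whose lineage is known for Ascl2 and Phlda2, summed to 178 and 186 CPM in TKO and 103 and 125 CPM in WT at day 7, and 3 of its 8 genes were higher and 1 lower; Eomes, which the primitive streak also expresses, gave 149 and 151 CPM of this in TKO and 67.1 and 84.6 CPM in WT. The endoderm list summed to between 126 and 144 CPM in TKO and between 105 and 139 CPM in WT at day 7 (3 of 7 higher, 2 lower), with Afp at 0 counts in both WT libraries. The neural list summed to between 203 and 299 CPM in TKO and between 140 and 226 CPM in WT at day 4 (3 of 5 higher). The part of these cell types and states in the differences of the cluster genes was not tested. Beside the counts of these lists, 12.7%, 13.4%, 28.9% and 44.5% of all genes tested were called on days 0, 2, 4 and 7.

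**Figure D5:**
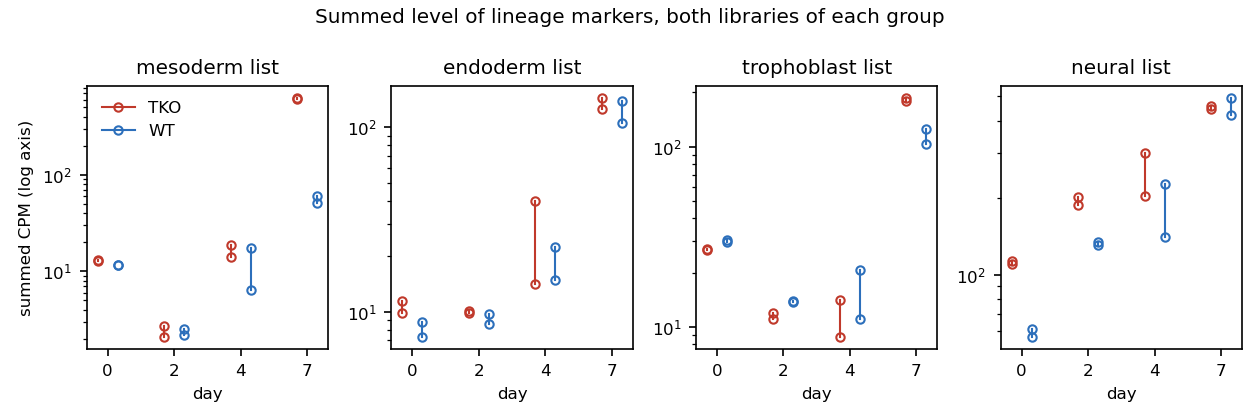
Summed CPM (log axes) of 4 lists of lineage markers by day, TKO in red and WT in blue; circles are the 2 libraries of a group, joined by a line. At day 7 the mesoderm list reads 604 and 626 CPM in TKO, against 50.7 and 60.7 CPM in WT, while the day 7 endoderm values overlap.

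Over the 16 libraries, the tested protein-coding genes whose log2 CPM was most like that of Igf2 were Efna5, Gria3 and Yaf2 (Pearson r = 0.984, 0.982 and 0.982). For Cdkn1c they were Grp, Arl4a and Rab23 (0.969, 0.965 and 0.962). Ascl2 was most like Tnnt1, Rngtt and Ubqln1 (0.913, 0.876 and 0.875), and Slc22a18 most like Suclg2, Camk2n1 and Eif4a2 (0.929, 0.928 and 0.923). These values describe a shared course over 8 groups of 2 libraries and carry no test. Among the cluster genes themselves, Cdkn1c had r = 0.55 with Nap1l4, 0.50 with Phlda2, 0.47 with Igf2, 0.44 with Ascl2, 0.33 with Tssc4, -0.36 with Slc22a18 and -0.41 with Cd81 over the same libraries. The pairs farthest from zero were Slc22a18 with Igf2 (-0.74) and Tssc4 with Nap1l4 (0.72).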

How the data were processed

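Bulk RNA from 16 libraries of E14 cells was analysed, 2 per genotype and day; the library protocol marks strand, per the labels' protocols. The deposited tables hold estimated counts per transcript, not normalised, TPM scaled for depth and length, and transcript and effective lengths in bases (columns of other kind), per the file headers. The submitters' processing notes name kallisto, GRCm38 and mm10; versions, annotation and any use of strand are not given in the sources used here.

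The estimated counts of 116728 of 119414 transcripts (97.75%) were matched by Ensembl identifier to GENCODE vM21 on GRCm38, summed per gene and rounded; unmatched transcripts held 0.946% to 1.051% of counts. Differences were fitted in R 4.3.3 by edgeR 4.0.16 (TMM, filterByExpr, robust quasi-likelihood fit, 8 group means, 8 residual degrees of freedom, common biological coefficient of variation 0.111), with Benjamini-Hochberg adjustment over 18489 genes. SE was derived from the log2 fold change and its F statistic, and ± on CPM is the SD of 2 libraries. The replicates are called biological in the labels; whether they are separate cultures is not stated, and p-values measure the spread between them. Totals of 33168178 to 58197630 counts per library limit the precision of low genes; intervals and the floor of 3 counts over a group cover counting error only. On simulated counts for TKO against WT at day 7 over 18489 genes the fit called 82.2% of 101 changes of 1 log2 unit. It called 94.9% of 99 changes of 2 log2 units, and 0.067% of unchanged genes. The simulation used the same biological coefficient of variation for every gene and placed changes only in genes at or above a set expected count. Whether these rates hold for genes with a larger spread, for low genes, for pairs as far apart as WT day 0 or for the other days was not tested.

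The members and lists were chosen with earlier results of these data known. The text names all 9 members, and of each other list up to 3 called genes per direction with the lowest adjusted p, beside its counts; Eomes, T, Kdr, Hand2, Tubb3, Cdx2, Krt7, Nap1l5, Cdkn1a, Cdkn1b, Cd9, the day 4 endoderm genes and the genes at 0 counts were singled out after their values were seen. Likeness is Pearson's r over 16 libraries. Promoters are RefSeq windows of GRCm38.p6 (6 of 9 members matched); proteins were not used here. Alternatives were DESeq2 1.42.0, RLE size factors, no filter, an effective-length offset, a fit of the compared libraries alone, a replicate block and leaving out each library; TPM levels stood beside CPM. Fits without day 0 and with Gm49394 added to Igf2 were chosen after seeing the data.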

Additional observations from a re-analysis of the deposited data

Results flagged for a closer look

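The genotype difference changed from day 0 to a later day, by the interaction test of edgeR with Benjamini-Hochberg adjustment. Of the 8 tested genes, 2, 3 and 3 were called on days 2, 4 and 7, beside 7.56%, 16.3% and 27.1% of all genes. Taken over the 3 days these were 4 different genes, and the share of all genes called on any of those days was not computed. On day 2 the genes called were Ascl2 (log2 change of the difference 2.58, adjusted p = 0.0212) and Cd81 (0.50, adjusted p = 0.0210). The Ascl2 call was lost in 6 and the Cd81 call in 5 of 14 alternatives, each time by leaving out 1 library, and such fits called 0 to 3 cluster genes. On day 4 they were Cdkn1c (3.37, adjusted p = 0.00102), Ascl2 (3.20, adjusted p = 0.00565) and Cd81 (0.87, adjusted p = 0.000221). On day 7 they were Cdkn1c (6.28, adjusted p = 6.30e-06), Phlda2 (2.42, adjusted p = 0.00837) and Cd81 (0.99, adjusted p = 3.71e-05). The difference of Cd81, Phlda2 and Cdkn1c was negative at day 0 and positive at day 7, although the day 0 value of Cdkn1c and the day 7 value of Phlda2 were not called. All 3 days use the same day 0 libraries, of which the WT pair stood farthest apart of all groups. Groups of 2 libraries allow no test for a single deviating library.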

How the results depend on the processing

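The genotype differences of Cdkn1c at days 4 and 7, of Igf2 at day 4 and of Ascl2 and Cd81 at day 7 kept their direction and call in every alternative run. With only the compared libraries, 0 cluster genes were called at day 0 (359 of all genes), 2 at day 2 and 5 at day 7, 5 on day 7 against day 0 in TKO, and 2821 of all genes at day 4; the day 4 interaction gave 1547 genes. With no filter on low counts, 5 cluster genes were called on day 7 against day 0 in TKO. Leaving out 1 library gave 1 to 2 cluster genes and 687 to 4294 genes at day 0, 579 to 2008 genes at day 2, 0 to 3 cluster genes and 615 to 2166 genes in the day 2 interaction, and 1850 to 4281 genes in the day 4 interaction; the cause was not tested.

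Values that changed sign were not called in either form. The effective-length offset gave 0.41 for Igf2 at day 0. For Nap1l4, RLE size factors and DESeq2 gave 0.008 at day 4 and 0.007 at day 7, and the compared libraries alone 0.002 and 0.017. Over the fits without 1 library, day 0 values ran from -1.74 to 0.71 for Igf2, -0.134 to 0.036 for Nap1l4 and -0.043 to 0.262 for Tssc4; day 2 values from -0.14 to 0.29 for Cdkn1c and -0.074 to 0.074 for Cd81; day 4 values from -0.94 to 0.42 for Phlda2, -0.092 to 0.084 for Nap1l4 and -0.38 to 0.94 for Slc22a18; and WT day 7 against day 0 from -0.299 to 0.043 for Cdkn1c. Of 31 ratios of mean levels, 20 moved by less than the spread between replicates in TPM and 11 by more. DESeq2 gave no adjusted p for Slc22a18 in some comparisons.

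Deviations of libraries with the same replicate number correlated between -0.332 and 0.0743 over 28 pairs of groups, so no shared shift by replicate number was seen. This check cannot tell whether libraries with the same number were cultured or processed together. With a replicate block, 1992, 2098, 4972 and 7880 genes were called between the genotypes on days 0, 2, 4 and 7, against 2343, 2482, 5342 and 8228 without it. The adjusted p was then 0.0623 for Slc22a18 at day 0 and 0.0511 for Ascl2 at day 4, and the block changed no other call of a cluster gene. Depth limits Kcnq1, Slc22a18 and the day 0 values of Igf2, Cdkn1c and Ascl2.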
